A study of Mus musculus with 35 samples.

Results

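The genes described here are 35 genes of the unfolded protein response and the heat shock response, followed in interscapular brown adipose tissue (iBAT) of mice over 5 days of cold exposure. They were chosen by name as genes of these pathways, with earlier results of these data known, and all 35 were found among the 55421 rows of the count table. Of these, 14 encode chaperones and folding enzymes of the endoplasmic reticulum (ER), 3 act in ER-associated degradation, 4 are ER stress sensors or their transcription factors, 7 belong to the integrated stress response, 6 are cytosolic heat shock proteins and 1, Nfe2l1, is an ER-anchored activator of proteasome genes.

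iBAT was taken from male C57BL/6J mice of 9 to 10 weeks, with 5 controls and 5 mice for every one of 6 exposures to 6 °C (6 hours and 1, 2, 3, 4 and 5 days), giving 35 libraries from 35 mice. Controls stayed under colony conditions at 24 °C, and cold-exposed mice were housed singly without nesting material, so that effects of temperature and housing cannot be told apart. Polyadenylated RNA of the whole tissue was sequenced from the 3' end, with 3846016 to 6047247 reads counted on genes per mouse. The levels below are CPM, reads scaled to a common library size with TMM factors, on which 1 read was worth about 0.17 to 0.26 CPM, and since each transcript is read at its end they are not set against each other between genes.

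The unfolded protein response begins with sensors in the ER membrane (Ern1, Atf6 and Eif2ak3), which detect misfolded protein in the lumen and raise the output of chaperones, folding enzymes and degradation factors. Eif2ak3 also slows translation through eIF2alpha, a step it shares with kinases that sense other stresses, and this favours Atf4 and its targets, the integrated stress response. The cytosolic heat shock response is a separate program, run by the transcription factor Hsf1, that supplies Hsp70 and Hsp90 chaperones and their cochaperones. In brown adipocytes, which burn fuel to make heat, cold is a known trigger of demand on protein synthesis, the proteasome and mitochondria.

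Where RefSeq promoter windows were at hand (30 of the 35 genes, 250 bases before to 50 after the start, GRCm38.p6), they were searched on both strands for letters known from these programs. The ER stress element was spelled as CCAAT, 9 bases of any kind and CCACG, and it was found in 7 of the 30 genes (23.3%) and in 37 of all 27025 genes with a window (0.137%). These 7 stretches are shown because all 7 genes are among the 14 ER chaperones described below. Each is read in the direction in which the element reads CCAAT to CCACG, with the letters of the element in capitals, and all lie before the start of the gene.
Hspa5, chr2:34772010-34772058, + strand, element 65 to 47 bases before the start: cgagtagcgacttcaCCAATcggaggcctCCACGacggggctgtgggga
Calr, chr8:84847060-84847108, + strand, element 162 to 144 bases before the start: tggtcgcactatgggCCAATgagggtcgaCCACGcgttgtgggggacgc
Canx, chr11:50325785-50325833, - strand, element 145 to 127 bases before the start: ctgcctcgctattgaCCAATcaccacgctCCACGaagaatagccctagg
Hsp90b1, chr10:86705518-86705566, + strand, element 107 to 89 bases before the start: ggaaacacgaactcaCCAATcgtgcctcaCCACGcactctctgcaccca
Dnajc3, chr14:118937812-118937860, + strand, element 105 to 87 bases before the start: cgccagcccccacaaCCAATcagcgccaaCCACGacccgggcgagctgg
Pdia6, chr12:17266476-17266524, + strand, element 98 to 80 bases before the start: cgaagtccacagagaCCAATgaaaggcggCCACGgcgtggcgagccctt
Creld2, chr15:88819505-88819553, - strand, element 126 to 108 bases before the start: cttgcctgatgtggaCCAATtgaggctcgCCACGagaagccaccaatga

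Hsp90b1 holds another such element 212 to 194 bases before its start. The CCACG portion alone, which is part of the full element, was present in 23 of the 30 genes (76.7%) and in 35.5% of all genes. A C/EBP-ATF response element, spelled TGATGNAA, was found in 4 of the 30 (13.3%), against 4.51% of all genes. The genes that hold it are shown because Asns and Trib3 carry the late part of the time course below. Herpud1 does not, and Chac1 had too few reads to be tested.
Asns, chr6:7693214-7693243, - strand, element 23 to 16 bases before the start: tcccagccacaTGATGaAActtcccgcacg
Trib3, chr2:152344028-152344057, + strand, element 14 to 21 bases after the start: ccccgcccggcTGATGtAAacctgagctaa
Herpud1, chr8:94386306-94386335, - strand, element 112 to 105 bases before the start: ggggtgcgggcTGATGcAAcccgccgtggt
Chac1, chr2:119351038-119351067, - strand, element 193 to 186 bases before the start: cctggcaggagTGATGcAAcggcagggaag

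A heat shock element, spelled GAANNTTCNNGAA, was found in Hsph1 only (1 of 30, 3.33%, against 0.662% of all genes), 15 to 27 bases after an annotated start.
Hsph1, chr5:149636280-149636308, + strand: actgaggaGAActTTCcaGAAtctgcagc
The windows of Dnajb1, Hspa1a and Hspa1b do not hold these letters, which says nothing of other spellings or of sequence outside the window. No window was used for Hspa8, Hsp90aa1, Manf, Hyou1 and Atf6. A match is a stretch of letters, and binding was not measured. Genes and letters were both chosen from what is known of these programs, so the larger shares among members are not independent support.

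Each duration was compared with the same 5 room temperature controls, and a gene was called at a Benjamini-Hochberg adjusted p below 0.05 over all genes tested in edgeR's quasi-likelihood test. After 6 hours, 14 of the 31 genes that passed the low-count filter were higher and 4 lower, while 21.5% of all genes tested were higher and 21.0% lower. After 1 day, 14 of 32 were higher and 3 lower (all genes: 18.9% and 17.8%). After 2 days, 12 of 31 were higher and 1 lower (16.4% and 14.7%). After 3 days, 17 of 33 were higher and 2 lower (18.3% and 15.5%). After 4 days, 15 of 32 were higher and 2 lower (19.4% and 18.6%), and after 5 days, 16 of 31 were higher and 2 lower (20.2% and 18.6%). The higher counts include Sdf2l1 after 1 and 3 days and Hspa1a after 3 days. These genes passed the filter through the cold mice, so their calls add no support to the counts. The median log2 fold change of the members tested lay between 0.30 after 6 hours and 0.47 after 1 day, beside medians between -0.03 and -0.01 over all genes. These counts hide a change in which genes were higher, which the following paragraphs take role by role.

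**Figure D1:**
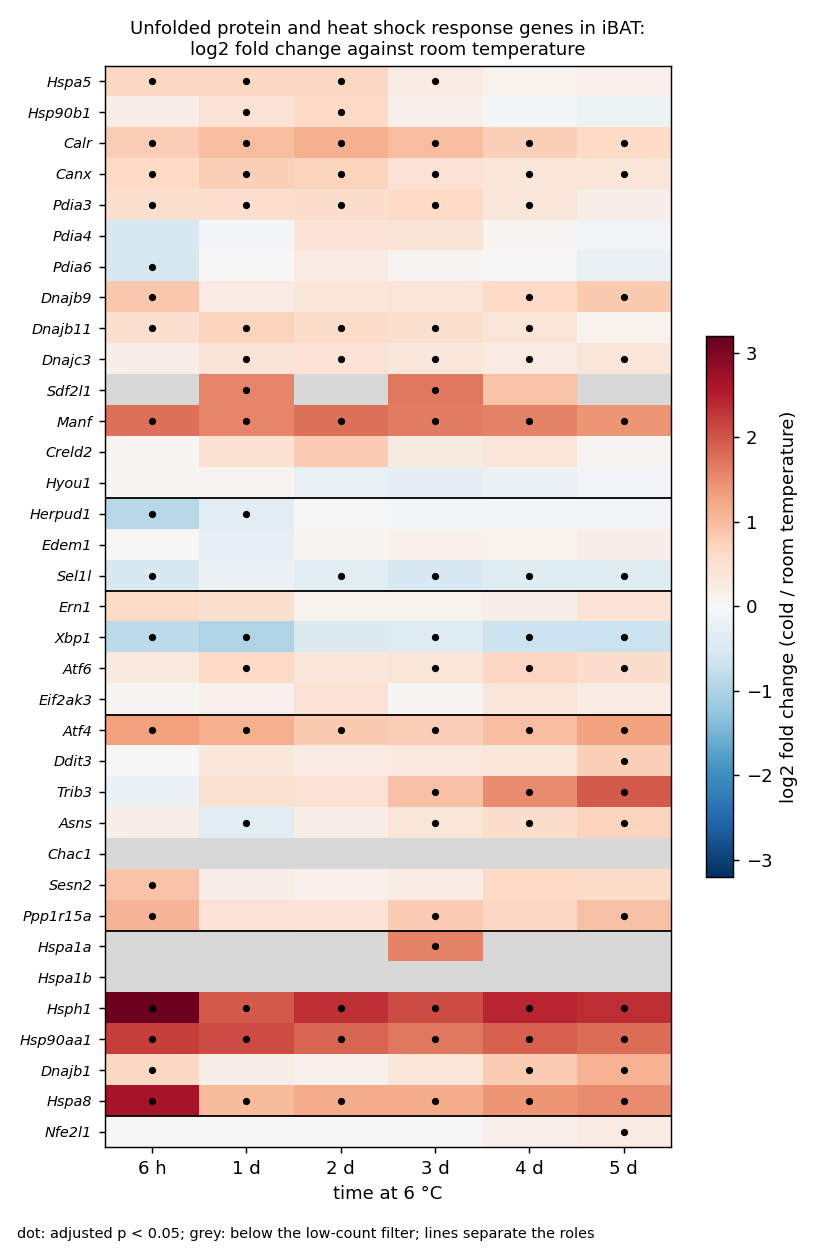
Log2 fold change of each of the 35 genes against room temperature (colour) for 6 durations at 6 °C (columns), grouped by role; dots mark adjusted p below 0.05 and grey cells genes below the low-count filter. Cytosolic Hsph1, Hspa8 and Hsp90aa1 were the most changed, with the peak of Hsph1 and Hspa8 at 6 hours. Trib3 was called from 3 days on, though at 3 days the call was lost in several other fits, and Xbp1, Sel1l and Herpud1 were lower.

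Scaling affects the smaller changes. With library size alone in place of TMM, the median of all genes moved to between -0.25 and -0.15 on the log2 scale against controls, and the calls over all genes after 6 hours became 1342 higher and 3399 lower. Under that scaling, members were 11 higher and 5 lower after 1 day, 8 and 2 after 2 days, and 10 and 5 after 5 days. No called fold change of a member turned its sign under any alternative tried. In whole tissue, a lower level can come from fewer cells of a type or from less RNA per cell, and these cannot be told apart. Brown adipocyte markers (Ucp1, Cidea, Cox8b, Adipoq, Plin1, Fabp4 and Pparg) summed to 13398 to 24407 CPM in the 35 mice, so as a sum they were present in every mouse. Of these 7 markers, 1 or 2 were called higher and 1 to 3 lower than controls at each duration.

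The cytosolic heat shock genes showed the largest changes, and they came early. Hsph1, an Hsp110 chaperone that acts as an exchange factor for Hsp70, was at 7.72, 14.4, 10.0, 7.89 and 8.53 CPM in the 5 controls. After 6 hours it was at 57.6, 95.4, 85.4, 98.5 and 94.1 CPM, which was 8.79-fold higher (log2 fold change 3.14, SE 0.18, adjusted p = 5.5e-10). The lowest cold mouse of any duration, at 29.2 CPM after 2 days, was above the highest control. Hsph1 then settled at means between 37.9 ± 4.23 (SD, n = 5) after 1 day and 52.5 ± 9.06 CPM after 4 days, with log2 fold changes of 1.97 to 2.43 from 1 to 5 days.

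Hspa8, the constitutive cytosolic Hsp70, also peaked at 6 hours. Controls were at 62.3, 82.7, 65.1, 69.7 and 58.8 CPM, and the mice after 6 hours at 361, 506, 444, 418 and 403 CPM, a 6.21-fold difference (log2 fold change 2.64, SE 0.12, adjusted p = 5.1e-11). After 1 day it was at 111, 131, 181, 139 and 127 CPM, still above every control and 2.03-fold higher than their mean level (adjusted p = 1.9e-05). It was 2.83-fold higher after 5 days (log2 fold change 1.50, SE 0.12, adjusted p = 5.3e-08), so the control and cold ranges did not overlap at any duration.

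Hsp90aa1, the inducible cytosolic Hsp90, was also highest at 6 hours. It was at 72.2, 87.6, 61.1, 49.8 and 44.1 CPM in controls and at 207, 378, 287, 290 and 302 CPM after 6 hours, 4.60-fold higher (log2 fold change 2.20, SE 0.17, adjusted p = 2.8e-08). From 1 to 5 days its log2 fold changes were between 1.68 and 2.09, and the lowest cold mouse of any duration was at 159 CPM, again above all controls. Dnajb1, the Hsp40 cochaperone that delivers clients to Hsp70, was higher at both ends of the time course. It went from 14.5 ± 1.10 CPM in controls to 23.0 ± 4.44 after 6 hours (log2 fold change 0.65, SE 0.14, adjusted p = 0.00118), 25.3 ± 4.13 after 4 days (0.80, SE 0.13, adjusted p = 1.7e-04) and 31.2 ± 6.46 after 5 days (1.10, SE 0.15, adjusted p = 1.4e-05). After 1, 2 and 3 days its log2 fold changes were 0.18, 0.14 and 0.38 and were not called.

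The stress-inducible Hsp70 genes Hspa1a and Hspa1b were close to the detection limit in every group. Hspa1a had 2 to 14 reads per control mouse and 4 to 23 after 6 hours, and Hspa1b 5 to 12 and 6 to 25. The single call of Hspa1a against controls was after 3 days (10 to 30 reads, log2 fold change 1.58, SE 0.41, adjusted p = 0.00717), the only duration at which it passed the filter, and it passed through the cold mice. Hspa1b did not pass it against controls at any duration, and in a fit without the filter it was higher after 6 hours (log2 fold change 1.39, adjusted p = 0.00427). The genes are near-identical copies, so how reads were split between them is uncertain.

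**Figure D2:**
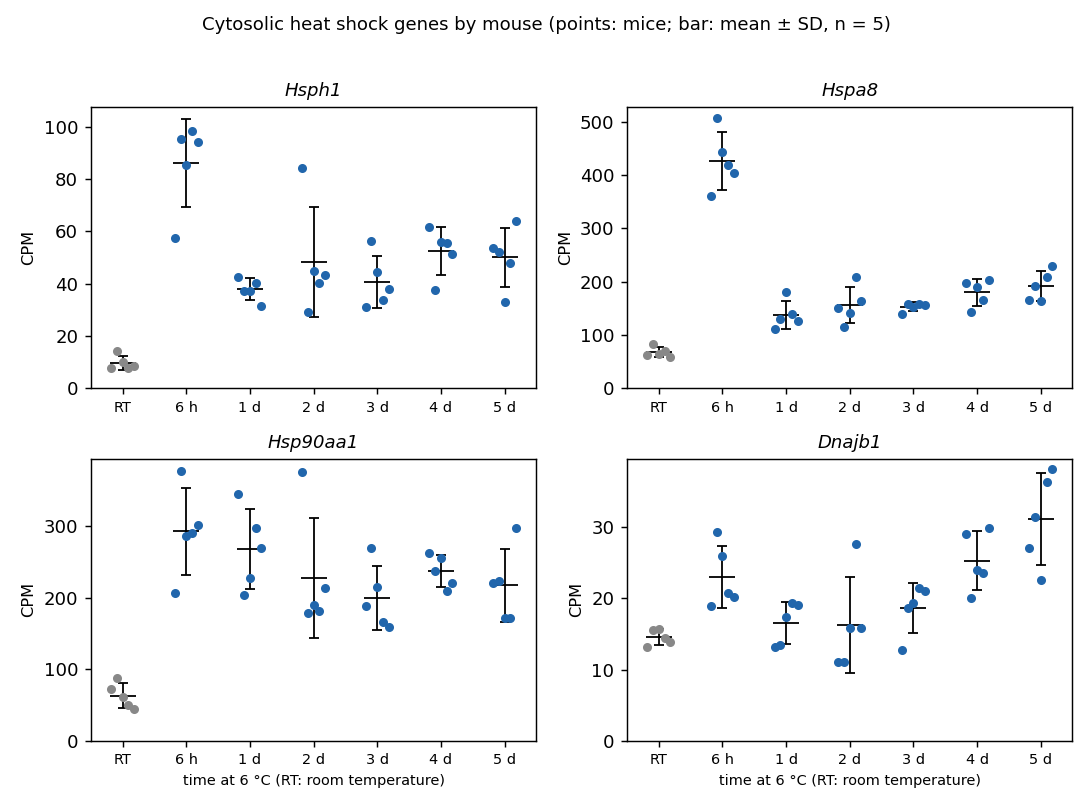
CPM of Hsph1, Hspa8, Hsp90aa1 and Dnajb1 in each of the 35 mice (points) by group, with mean and SD (n = 5 mice). Hsph1 and Hspa8 peaked at 6 hours with means of 86.2 and 426 CPM, and every cold mouse lay above every control for Hsph1, Hspa8 and Hsp90aa1.

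To ask whether the response at 1 day and at 5 days differed from that at 6 hours, the cold groups were compared with each other. Between 6 hours and 1 day, 2 of 34 members tested were higher at 1 day and 6 lower (all genes: 9.19% and 7.75%). Between 6 hours and 5 days, 6 of 33 were higher at 5 days and 9 lower (all genes: 19.0% and 16.9%). The 9 lower include Hspa1b, which passed the filter mainly through the mice of 6 hours, so its call adds no support to the count. Hspa8 was 0.325-fold its level at 6 hours after 1 day (log2 fold change -1.62, SE 0.13, adjusted p = 3.5e-07) and 0.456-fold after 5 days (-1.13, SE 0.12, adjusted p = 2.5e-07). Hsph1 was 0.442-fold after 1 day (-1.18, SE 0.14, adjusted p = 2.0e-05) and 0.588-fold after 5 days (-0.77, SE 0.16, adjusted p = 7.2e-04). Hsp90aa1 differed by -0.12 after 1 day (SE 0.15, adjusted p = 0.652) and was lower after 5 days (-0.41, SE 0.15, adjusted p = 0.04). That last call was lost in 8 of 10 fits without 1 mouse (-0.55 to -0.31).

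The other genes of the cytosolic heat shock machinery were mostly higher as well. Of 23 further genes listed, 22 were tested at each duration. Of these, 16 were higher after 6 hours, 1, 2, 4 and 5 days and 15 after 3 days, with 0 or 1 lower (all genes: 16.4% to 21.5% higher and 14.7% to 21.0% lower). Their median log2 fold change was 1.14 after 6 hours and 0.71 to 0.87 later. The largest changes were those of Hspb8, a small heat shock protein, and Hspa4l, an Hsp110 relative, both after 1 day. Hspb8 was at 14.1 ± 4.31 CPM in controls and 65.6 ± 10.5 after 1 day (log2 fold change 2.21, SE 0.18, adjusted p = 1.1e-07). Hspa4l went from 20.5 ± 4.36 to 77.5 ± 11.4 CPM (1.92, SE 0.15, adjusted p = 9.3e-08). Both genes are also expressed in muscle, and summed skeletal muscle markers ranged from 73.4 to 945 CPM in controls and from 65.3 to 1095 CPM after 1 day. Hsf1 itself, singled out here after its values were seen, was called after 6 hours only (0.59).

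The ER chaperones rose less and in another pattern. Of the 14 genes, 7 were higher and 1 lower of 13 tested after 6 hours, 9 of 14 were higher after 1 day, 8 of 13 after 2 days, 8 of 14 after 3 days, 7 of 14 after 4 days and 5 of 13 after 5 days. Sdf2l1, which passed the filter through the cold mice, is among those higher after 1 and 3 days. Over all genes, 16.4% to 21.5% were higher and 14.7% to 21.0% lower at these durations. The median log2 fold change of the list was 0.52, 0.51, 0.58, 0.40, 0.37 and 0.13 in that order. With library size only, 6, 6, 4, 5, 4 and 3 of these genes were higher in that order, and 2 were lower after 6 hours and after 5 days. Under that scaling, fewer of all genes were higher and more were lower at each duration (1342 and 3399 of 10593 after 6 hours, for example).

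Manf, a secreted and ER-resident factor that binds Hspa5, changed most. It was at 26.1, 15.7, 28.1, 16.3 and 16.9 CPM in controls and at 76.7, 65.8, 69.7, 77.1 and 64.3 CPM after 6 hours (3.40-fold, log2 fold change 1.76, SE 0.15, adjusted p = 8.2e-08). It remained 2.67- to 3.41-fold higher from 1 to 5 days, and all 30 cold mice were above all controls, the nearest at 29.4 CPM after 1 day. Exons of Manf overlap those of Rbm15b on the same strand and of Dcaf1 on the other, and the counting's use of strand is not given in the sources used here, so part of its count could belong to these genes.

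Calr, the calcium-binding lectin chaperone of the ER lumen, was at 137, 97.8, 141, 109 and 111 CPM in controls and at 321, 275, 286, 215 and 225 CPM after 2 days, its highest group (2.21-fold, log2 fold change 1.14, SE 0.14, adjusted p = 1.6e-05). It was higher at every duration, by 0.64 to 0.98 on the log2 scale elsewhere, and no cold mouse fell within the control range. Its membrane-bound partner Canx was also higher at each duration, from 99.9 ± 5.77 CPM in controls to 168 ± 16.3 after 1 day (log2 fold change 0.75, SE 0.10, adjusted p = 1.8e-05) and 132 ± 4.77 after 5 days (0.39, SE 0.09, adjusted p = 0.00212), without overlap with controls. With library size only, the call of Canx after 5 days was lost (0.16, adjusted p = 0.219). The disulfide isomerase Pdia3, which works with both lectins on glycoproteins, was higher from 6 hours to 4 days (log2 fold changes 0.36 to 0.63, adjusted p between 7.1e-04 and 0.0258) and differed from controls by 0.18 after 5 days (SE 0.11, adjusted p = 0.209). The calls of Pdia3 after 1, 2 and 4 days were lost with library size only (0.24 to 0.37). The call at 4 days was lost without any one of 5 mice (log2 fold change 0.29 to 0.35 without them, adjusted p between 0.0502 and 0.0703).

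Hspa5 (BiP), the ER Hsp70 that keeps the sensors inactive when folding proceeds well, was raised for 2 days and then returned. Controls were at 306, 248, 239, 256 and 237 CPM. The mice after 6 hours were at 394, 385, 408, 373 and 500 CPM, those after 1 day at 405, 345, 363, 468 and 471 CPM, and those after 2 days at 565, 359, 402, 356 and 353 CPM, all above the controls. The log2 fold changes were 0.66 (SE 0.10, adjusted p = 6.2e-05), 0.67 (SE 0.11, adjusted p = 2.3e-04) and 0.66 (SE 0.14, adjusted p = 0.0021). After 3 days Hspa5 was at 299 to 325 CPM and only marginally called (0.27, SE 0.10, adjusted p = 0.0345, lost in 7 of 10 fits without 1 mouse, with 0.24 to 0.34). After 4 and 5 days it differed by 0.11 and 0.13 (adjusted p = 0.379 and 0.289). Hspa5 was lower at 5 days than at 6 hours (log2 fold change -0.53, SE 0.10, adjusted p = 3.0e-04).

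Hsp90b1 (Grp94), the Hsp90 of the ER, was called only after 1 day (205 ± 43.1 CPM against 147 ± 15.7 in controls, log2 fold change 0.47, SE 0.13, adjusted p = 0.0108) and 2 days (230 ± 88.3 CPM, 0.64, SE 0.19, adjusted p = 0.0178). It was at -0.16 after 5 days (SE 0.10, adjusted p = 0.235) and lower than at 6 hours by a log2 fold change of -0.38 (SE 0.10, adjusted p = 0.00412). Its mean after 2 days rests in part on 1 mouse at 384 CPM, the other 4 being at 164 to 219, and without that mouse the log2 fold change was 0.37. With library size only, neither call of Hsp90b1 held (0.26 after 1 day and 0.45 after 2 days, adjusted p = 0.185 and 0.144). Among the cochaperones of Hspa5, Dnajb11 was higher from 6 hours to 4 days, most after 1 day (12.6 ± 0.919 to 20.5 ± 1.75 CPM, log2 fold change 0.71, SE 0.12, adjusted p = 2.7e-04). Dnajb11 lost its call at 2 days without control mouse 4 (0.55, adjusted p = 0.0506) or without mouse 1 of 2 days (0.41, adjusted p = 0.0571). Its call at 4 days (0.38, adjusted p = 0.0268) was lost without control mouse 4 or 5 or mouse 1 of 4 days (0.35 each, adjusted p = 0.0659, 0.0667 and 0.0587). With library size only, Dnajb11 was called after 1 day alone.

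Dnajb9 (ERdj4), a cochaperone that assists degradation and represses Ern1, was likewise called at both ends of the time course. It was higher after 6 hours (13.6 ± 2.30 to 25.1 ± 3.86 CPM, log2 fold change 0.87, SE 0.15, adjusted p = 1.4e-04), 4 days (0.63, SE 0.16, adjusted p = 0.00563) and 5 days (0.84, SE 0.18, adjusted p = 0.00105), with 0.27 to 0.39 and no call in between. Dnajc3 (p58IPK), an inhibitor of Eif2ak3, was higher from 1 to 5 days by 0.26 to 0.45 on the log2 scale (adjusted p between 0.00387 and 0.0435), and was at 0.19 after 6 hours (adjusted p = 0.162). Without control mouse 2 or mouse 1 of 3 days, Dnajc3 was no longer called at 3 days (0.30 and 0.29, adjusted p = 0.0548 and 0.057). The call of Dnajc3 at 4 days was lost in 7 of 10 fits without 1 mouse (0.21 to 0.29). All 5 calls were lost with library size only (0.12 to 0.23, adjusted p between 0.161 and 0.383). Sdf2l1, a chaperone cofactor in the ER, was barely counted, with 6 to 10 reads per control mouse. It passed the filter through the cold mice after 1 day (14 to 38 reads, log2 fold change 1.57, SE 0.36, adjusted p = 0.0025) and 3 days (19 to 30 reads, 1.69, SE 0.28, adjusted p = 2.0e-04), and after 4 days it was at 0.92 (SE 0.52, adjusted p = 0.18) with 0 reads in 1 of 5 mice.

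The remaining folding enzymes went the other way or did not pass the test. Pdia6, an oxidoreductase that also damps Ern1 signalling, was lower after 6 hours, at 43.7 ± 7.94 CPM against 61.3 ± 6.65 in controls (log2 fold change -0.51, SE 0.12, adjusted p = 0.00276), and between -0.21 and 0.26 later. Pdia4 was at -0.49 after 6 hours (SE 0.19, adjusted p = 0.0501), its largest difference from controls. It was called in several other fits (-0.68 with library size only, adjusted p = 0.00686, -0.48 without the filter, 0.0266, and -0.59 and -0.61 without control mouse 2 or mouse 1 of 6 hours). Creld2, a secreted chaperone, was at 0.80 after 2 days (SE 0.31, adjusted p = 0.0585). Hyou1 (Grp170), the exchange factor of Hspa5, was at -0.30 after 3 days (SE 0.22, adjusted p = 0.305). Creld2 was called without control mouse 3 or mouse 5 of 2 days (0.93 and 0.91, adjusted p = 0.0486 and 0.0434). Hyou1 was called without control mouse 5 (-0.48, adjusted p = 0.0396). Of the 7 genes that carry the ER stress element shown above, Hspa5, Calr, Canx, Hsp90b1 and Dnajc3 were thus higher at some duration, Pdia6 was lower after 6 hours and Creld2 was not called. Of the other ER chaperones, Pdia3, Dnajb9, Dnajb11, Manf and (through the cold mice) Sdf2l1 were also higher at some duration. Pdia4 and Hyou1 were not called, and no window was used for Manf and Hyou1.

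**Figure D3:**
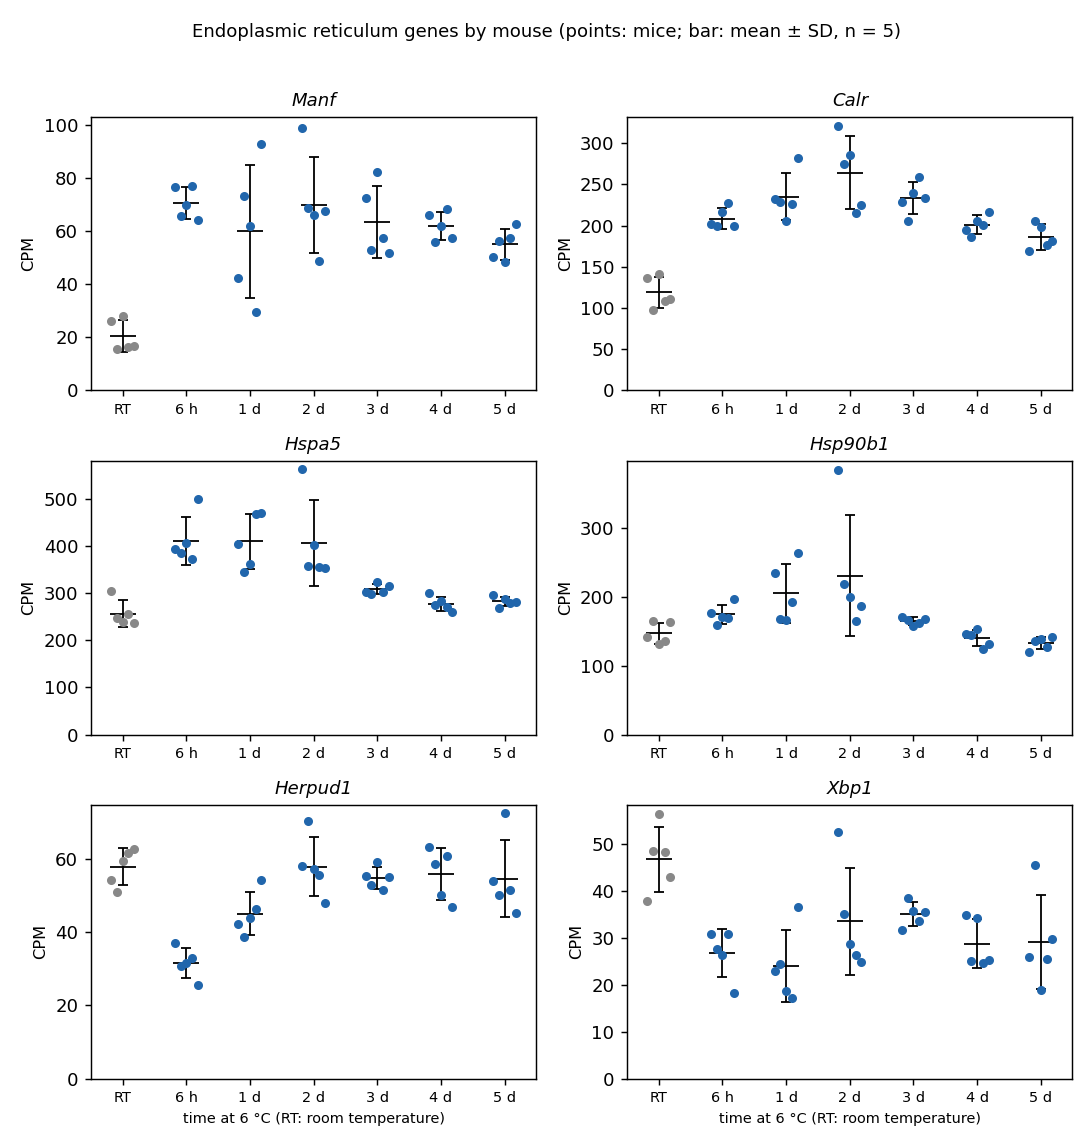
CPM of Manf, Calr, Hspa5, Hsp90b1, Herpud1 and Xbp1 in each of the 35 mice (points) by group, with mean and SD (n = 5 mice). Manf and Calr stayed above controls throughout, Hspa5 returned toward the control mean of 257 CPM by 4 days, and Herpud1 and Xbp1 were lower at 6 hours, with means of 31.6 and 26.8 CPM.

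Of 19 further ER folding and translocation genes, 18 were tested, with a median log2 fold change of 0.19 to 0.38. At each duration 5 to 8 were higher (27.8% to 44.4%) and 1 to 3 lower (5.56% to 16.7%). The shares of all genes were 16.4% to 21.5% higher and 14.7% to 21.0% lower. The largest changes in this list were decreases. Pdia5, another disulfide isomerase, went from 6.49 ± 0.939 CPM in controls to 1.15 ± 0.516 after 6 hours (3 to 8 reads per mouse, log2 fold change -2.51, SE 0.31, adjusted p = 4.2e-06). Pdia5 passed the filter through the controls, so its call adds no support to the count of lower genes. Fkbp14, a prolyl isomerase that acts on collagen, went from 5.09 ± 1.75 to 2.32 ± 0.698 CPM after 4 days (-1.12, SE 0.30, adjusted p = 0.0075).

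Of the degradation and sensor members, Herpud1, Sel1l and Xbp1 were lower and Atf6 was higher. Herpud1, a membrane component of the ER-associated degradation complex and a common marker of ER stress, was at 54.2, 51.1, 59.6, 61.7 and 62.8 CPM in controls and at 37.2, 30.7, 31.7, 33.0 and 25.6 CPM after 6 hours (0.537-fold, log2 fold change -0.90, SE 0.11, adjusted p = 6.4e-06), with no overlap. After 1 day it was at 38.6 to 54.4 CPM (-0.37, SE 0.11, adjusted p = 0.018), a call that was lost without control mouse 4 (-0.34, adjusted p = 0.0504) or mouse 2 of 1 day (-0.31, adjusted p = 0.059). From 2 to 5 days Herpud1 was within -0.09 to -0.01 of controls on the log2 scale, and it was higher than at 6 hours after 1 day (0.52, SE 0.13, adjusted p = 0.00837) and 5 days (0.81, SE 0.13, adjusted p = 8.1e-05).

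Sel1l, the scaffold of the Hrd1 ubiquitin ligase, was at 43.8, 49.7, 50.9, 41.1 and 51.2 CPM in controls and at 30.4, 29.6, 32.2, 32.3 and 44.1 CPM after 6 hours (log2 fold change -0.50, SE 0.12, adjusted p = 0.00294), 1 cold mouse lying within the control range. It was also lower after 2, 3, 4 and 5 days (-0.35, -0.49, -0.38 and -0.39), and all 5 mice after 3 days, at 28.0 to 36.6 CPM, were below all controls. The call of Sel1l after 2 days had an adjusted p of 0.0342 and was lost in 7 of 10 fits without 1 mouse. Edem1, which extracts misfolded glycoproteins for degradation, was not called, and its largest difference was -0.28 between 1 day and 6 hours (SE 0.15, adjusted p = 0.223). Of 19 further degradation genes, 18 were tested, with 3 to 5 higher (16.7% to 27.8%) and 0 to 4 lower (0% to 22.2%), shares near those of all genes given above. Derl1, a channel component, rose most (67.1 ± 13.5 to 146 ± 23.9 CPM after 5 days, log2 fold change 1.12, SE 0.14, adjusted p = 7.4e-06), followed by the p97 adaptor Nploc4 after 6 hours (0.90, SE 0.12, adjusted p = 8.2e-06).

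Xbp1, whose mRNA is spliced by Ern1 to make the transcription factor of the response, was lower. It was at 37.8, 48.5, 56.4, 48.3 and 43.0 CPM in controls, at 30.9, 27.7, 26.4, 30.9 and 18.3 CPM after 6 hours (log2 fold change -0.83, SE 0.14, adjusted p = 1.7e-04) and at 23.0, 24.4, 18.8, 17.1 and 36.7 CPM after 1 day (0.512-fold, -0.97, SE 0.17, adjusted p = 3.8e-04), below all controls both times. After 2 days it was not called (-0.47, SE 0.18, adjusted p = 0.0631), 1 mouse at 52.7 CPM lying among the controls, and after 3, 4 and 5 days it was lower again (-0.41, -0.70 and -0.69, adjusted p = 0.0122, 7.9e-04 and 0.00545). Counts at the 3' end do not separate spliced from unspliced Xbp1, so these values concern its total mRNA.

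Atf6, the sensor that is itself cleaved into a transcription factor, was at 20.1, 23.5, 28.9, 27.6 and 23.4 CPM in controls and at 53.5, 40.3, 29.2, 32.2 and 39.6 CPM after 4 days (1.57-fold, log2 fold change 0.65, SE 0.15, adjusted p = 0.00319). It was also higher after 1 day (0.64, SE 0.12, adjusted p = 6.8e-04), 3 days (0.38, SE 0.13, adjusted p = 0.0289) and 5 days (0.57, SE 0.14, adjusted p = 0.00437), and no mouse after 1 or 4 days was within the control range. The call of Atf6 after 3 days was lost in 5 of 10 fits without 1 mouse. With library size only, those after 3 and 5 days were lost (0.24 and 0.35). Ern1, at a control mean of 2.66 ± 0.775 CPM, was at 0.60 after 6 hours (SE 0.27, adjusted p = 0.0842, but 0.77 and called without control mouse 4, adjusted p = 0.0469), and Eif2ak3 (PERK) at 0.45 after 2 days (SE 0.19, adjusted p = 0.0785). Without mouse 1 of 2 days, Eif2ak3 was at 0.56 and called (adjusted p = 0.0224).

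Of the 7 integrated stress response members, 6 were tested, beside the shares of all genes given above. From 6 hours to 5 days, 3, 1, 1, 4, 3 and 5 were higher, and 1 was lower after 1 day. With library size only, 3, 1, 1, 1, 3 and 3 were higher in that order. The integrated stress response genes differed in when they were called. Atf4, its central transcription factor, was at 76.4, 75.1, 53.8, 57.2 and 45.0 CPM in controls and at 156, 173, 134, 156 and 160 CPM after 6 hours (2.50-fold, log2 fold change 1.32, SE 0.13, adjusted p = 4.2e-07). It was least raised after 3 days (92.9, 84.4, 158, 103 and 88.1 CPM, 0.79, SE 0.18, adjusted p = 0.00259) and was again 2.44-fold higher after 5 days (1.29, SE 0.15, adjusted p = 4.2e-06). All 30 cold mice were above all controls. Atf4 protein is set largely by translation, which these counts do not measure.

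Ppp1r15a (GADD34), the phosphatase subunit that restores translation, and Sesn2, a leucine sensor that restrains mTORC1, were raised at 6 hours. Ppp1r15a was at 8.11, 7.96, 4.57, 9.05 and 4.17 CPM in controls and at 13.1, 14.1, 16.5, 13.9 and 15.9 CPM after 6 hours (2.13-fold, log2 fold change 1.09, SE 0.20, adjusted p = 2.8e-04), with no overlap. It was lower after 1 day than at 6 hours (-0.63, SE 0.17, adjusted p = 0.017), a call lost in the fit over all 7 groups (-0.64, adjusted p = 0.151). Its calls after 3 days (0.82, SE 0.27, adjusted p = 0.0286) and 5 days (0.93, SE 0.33, adjusted p = 0.0311) rest on few mice: mouse 3 of 3 days was at 20.5 CPM, and mice 1 and 5 of 5 days at 21.9 and 19.7, the other 3 at 5.64 to 9.01. Without these single mice the log2 fold changes were 0.52, 0.67 and 0.73 and not called (adjusted p = 0.113, 0.11 and 0.0975). Control mice 3 and 5 decided both calls too (0.68 to 0.82 without them, adjusted p between 0.0686 and 0.0728). Sesn2 went from 5.34 ± 1.95 to 10.4 ± 3.89 CPM after 6 hours (0.92, SE 0.28, adjusted p = 0.0137), and was not called without mouse 2 of 6 hours (0.70, adjusted p = 0.0545).

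Trib3, a pseudokinase induced by Atf4 and Ddit3 that curbs Akt signalling, was the clearest late gene. Controls lay close together at 5.02, 5.44, 4.57, 4.93 and 4.35 CPM, and mice after 6 hours spread from 1.56 to 9.69 CPM without a call (-0.19, SE 0.34, adjusted p = 0.681). After 4 days it was at 21.9, 18.3, 10.7, 10.2 and 7.93 CPM (log2 fold change 1.50, SE 0.26, adjusted p = 2.7e-04) and after 5 days at 29.6, 10.6, 13.5, 16.1 and 26.3 CPM (3.93-fold, 1.97, SE 0.26, adjusted p = 9.9e-06), all above the controls. Its call after 3 days (0.93, SE 0.33, adjusted p = 0.0372) came with 1 mouse at 19.9 CPM beside 4 at 5.32 to 7.70, and was 0.39 without it (adjusted p = 0.184). That call was lost in 6 of 10 fits without 1 mouse, among them those without any one control (0.89 to 0.97, adjusted p between 0.0544 and 0.0714). It was also lost with library size only (0.82, adjusted p = 0.0793). Trib3 was 4.51-fold higher at 5 days than at 6 hours (2.17, SE 0.34, adjusted p = 4.5e-05).

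Asns, asparagine synthetase, and Ddit3 (CHOP), a transcription factor linked to prolonged stress, moved in the same late window. Asns was at 21.6 ± 1.69 CPM in controls, dipped after 1 day to 16.6 ± 2.49 (log2 fold change -0.37, SE 0.13, adjusted p = 0.0323, lost in 8 of 10 fits without 1 mouse), and was higher after 4 days (31.8 ± 1.88 CPM, 0.56, SE 0.10, adjusted p = 4.3e-04) and 5 days (35.7 ± 5.68 CPM, 0.72, SE 0.13, adjusted p = 2.6e-04), both without overlap with controls. Its call after 3 days (0.38, SE 0.13, adjusted p = 0.0319) was lost in 6 of 10 such fits. Ddit3 was at 31.3, 29.9, 43.7, 43.1 and 43.2 CPM in controls and at 89.6, 45.1, 49.4, 49.5 and 94.2 CPM after 5 days (1.71-fold, 0.77, SE 0.20, adjusted p = 0.00524), and its log2 fold changes were 0.00 to 0.37 before. It was above controls in all 5 mice, and without mouse 1 or mouse 5 the log2 fold change was 0.64 or 0.61 and still called. It was 0.57 with library size only (adjusted p = 0.0517). Ddit3 overlaps exons of Mars on the opposite strand. Chac1, a glutathione-degrading enzyme, had 0 to 4 reads per control mouse and 0 to 16 in cold mice and did not pass the filter in any comparison. In the fit without a filter its adjusted p was between 0.055 and 0.692 against controls. Its log2 fold change in that fit was largest after 5 days (1.83, adjusted p = 0.055).

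**Figure D4:**
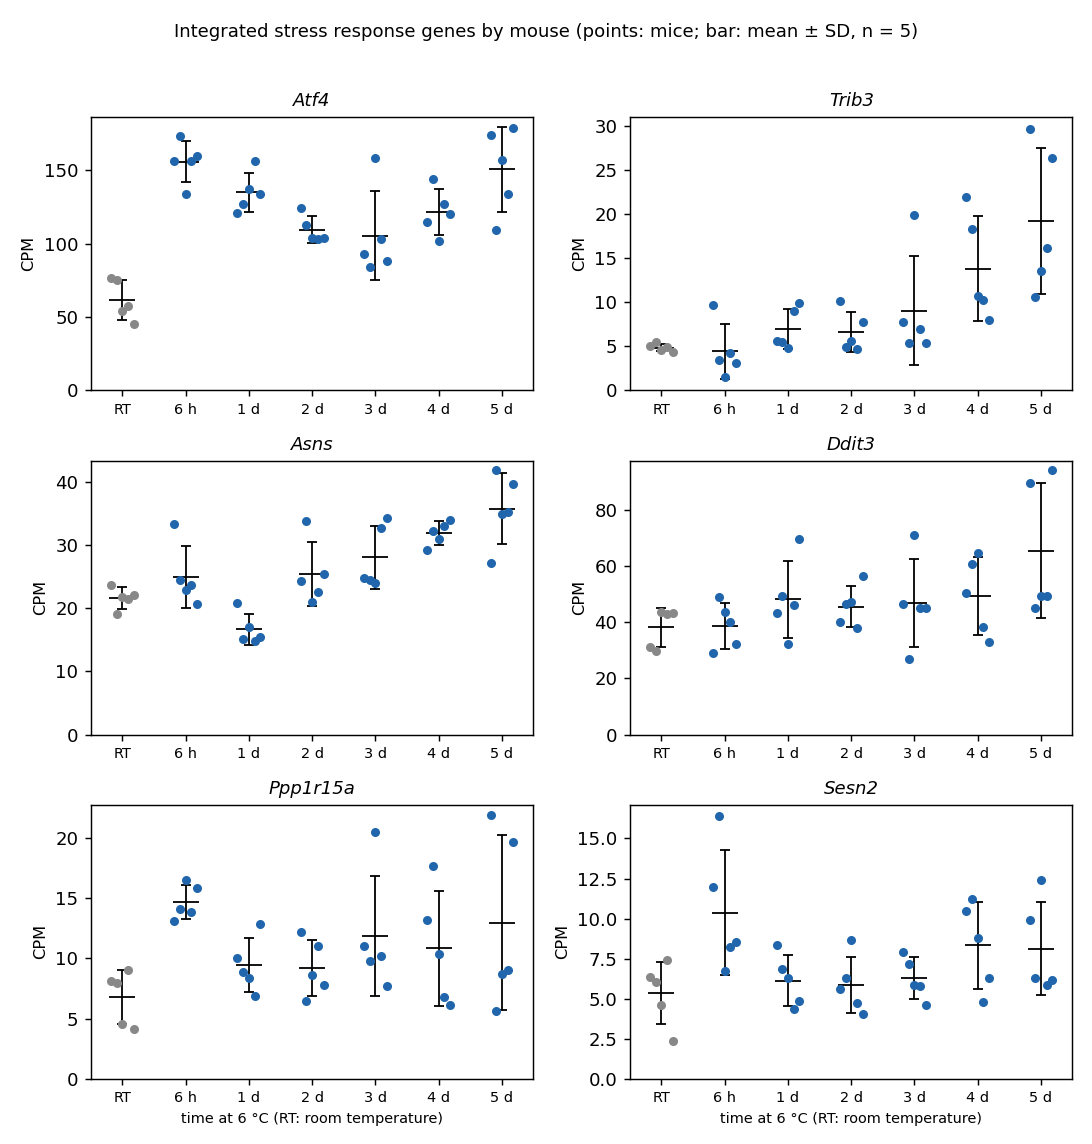
CPM of Atf4, Trib3, Asns, Ddit3, Ppp1r15a and Sesn2 in each of the 35 mice (points) by group, with mean and SD (n = 5 mice). Atf4 was above controls at all durations, Trib3 and Asns were highest after 5 days (means of 19.2 and 35.7 CPM), and the 5-day means of Ddit3 and Ppp1r15a include mice 1 and 5, which stand above the other 3.

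Of a list of 25 further integrated stress response genes, more than the share of all genes were called higher. Of 17 tested after 6 hours, 12 were higher and 2 lower, and later 9 to 12 of 16 to 18 were higher and 1 or 2 lower, with medians rising from 0.44 after 1 day to 0.86 after 5 days. Gdf15, a secreted stress hormone, had at most 2 reads in any control and 17 to 431 reads after 3 days, where it averaged 23.5 ± 30.4 CPM, and it passed the filter through the cold mice alone. Mthfd2, a mitochondrial folate enzyme, went from 3.18 ± 0.786 to 24.4 ± 11.8 CPM after 4 days (log2 fold change 2.95, SE 0.34, adjusted p = 4.9e-06). Among genes named after their values were seen, Slc3a2, an amino acid transporter subunit, was higher by 2.59 after 6 hours and 2.35 after 5 days, and Nupr1, a chromatin cofactor often raised in stress, was lower at every duration, by -2.12 after 2 days.

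**Figure D5:**
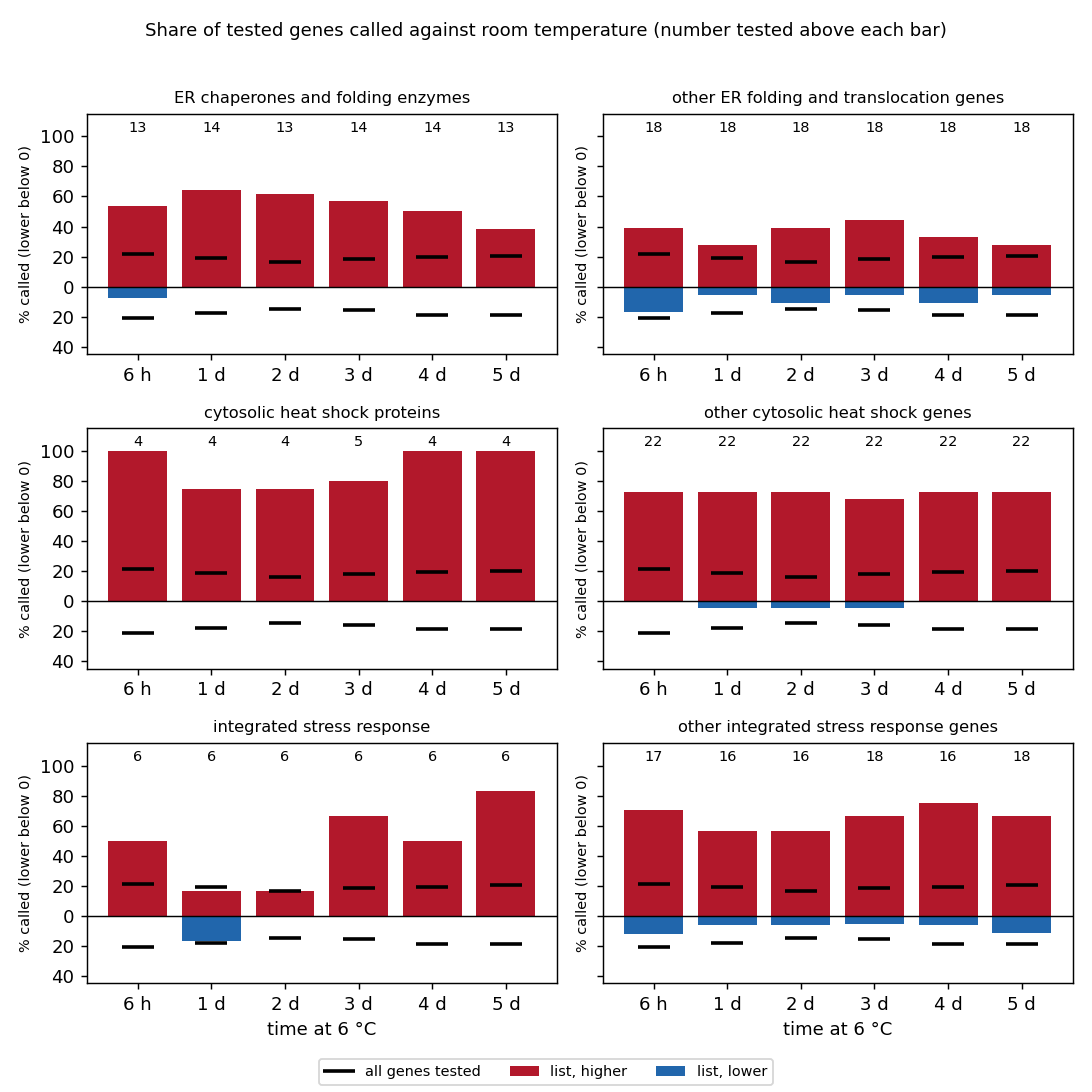
Percent of tested genes called higher (red) or lower (blue, below 0) against room temperature for 3 groups of members (left) and the matching lists of other pathway genes (right), with the share over all genes as black marks and the number tested above each bar. Cytosolic heat shock genes were called higher at 68.2% to 100% in both lists, and the integrated stress response members went from 16.7% after 1 and 2 days to 83.3% after 5 days.

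Nfe2l1, which is held in the ER membrane and, once released, drives proteasome subunit genes, differed little from controls. It was at 166, 161, 156, 158 and 158 CPM in controls and at 209, 167, 195, 195 and 190 CPM after 5 days (1.19-fold, log2 fold change 0.26, SE 0.09, adjusted p = 0.0322). From 6 hours to 3 days its log2 fold changes were between -0.02 and 0.02, and after 4 days 0.16 (SE 0.09, adjusted p = 0.159). The call at 5 days was lost in 7 of 10 fits without 1 mouse (0.23 to 0.31) and with library size alone (0.03, adjusted p = 0.857).

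Within groups, some mice held the highest value for many members. The share of all genes for which each mouse was highest was not counted, so these counts cannot be read as particular to the members. Mouse 1 of 2 days had the highest value of its group for 24 of the 35 genes, among them 13 of the 14 ER chaperones, with Hspa5 at 565, Hsp90b1 at 384, Manf at 98.9 and Hsp90aa1 at 376 CPM. Without it, the log2 fold changes after 2 days were 0.50 for Hspa5, 1.06 for Calr, 1.60 for Manf, 2.01 for Hsph1 and 1.59 for Hsp90aa1, all still called, and 12 members were higher and 2 lower. Its mitochondrial share of counts was 34.6% and its summed proliferation markers (Top2a, Mki67 and Birc5) 45.0 CPM, beside 38.0% to 43.4% and 3.41 to 28.7 CPM in the other 4. Its summed macrophage markers were 142 CPM beside 52.1 to 95.5. Over all genes, its counts also lay far from those of mice 3, 4 and 5 (chi-square per degree of freedom 22.6, 26.5 and 23.3). The same measure was 5.85 to 7.77 among mice 3, 4 and 5, and 10 between mice 1 and 2. Mouse 5 of 1 day was highest for 19 of 35 genes, 9 of them ER chaperones, and had summed skeletal muscle markers of 1095 CPM beside 65.3 to 380. Without it, Xbp1 was at -1.15, Hsp90b1 at 0.38 and Manf at 1.35 after 1 day, all still called. Over all groups, the summed proliferation markers were at 3.30 to 6.17 CPM in controls and at 9.14 to 53.6 CPM from 3 days on. Macrophage markers were at 53.2 to 116 and at 57.9 to 225 CPM, alongside the late rise of Trib3, Asns and Ddit3. Summed endothelial markers were at 231 to 286 CPM in controls and at 394 to 487 after 6 hours, when Hsph1 and Hspa8 peaked. They were at 459 to 540 after 1 day, when Hsph1 and Hspa8 had fallen from that peak, and at 203 to 354 after 5 days. Summed erythroid markers were at 1821 to 2337 CPM in controls and 2693 to 4978 after 5 days. Single markers did not all go with the sums. Of 5 endothelial markers, 2 were called higher and 1 lower after 6 hours, and 3 higher and 0 lower after 1 day. From 3 days on, 6 of 7 macrophage markers were tested, with 2 or 3 higher and 1 lower. The part of these cell types in the results was not tested.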

How the data were processed

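iBAT RNA of 35 mice was sequenced with the QuantSeq 3' FWD kit, 5 mice in each of 7 groups. The aligner was STAR 2.6.1d, and the authors deposited raw counts per gene from HTSeq 0.11.2 on GRCm38.98, without normalization. Whether strand was used in counting is not given in the sources used here. Columns were matched to mice by duration and replicate number. 267 rows had no gene symbol. Library totals were 3846016 to 6047247 counts, of which mitochondrial genes took 33.6% to 46.2% and Gm42418 7.8% to 16.3%.

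From these counts, each pair of groups was fitted separately with edgeR 4.0.16 in R 4.3.3 (TMM, filterByExpr, quasi-likelihood test), with Benjamini-Hochberg adjustment over all genes tested and a threshold of 0.05. The 6 comparisons with room temperature share the same 5 controls. Alternatives were DESeq2 1.42.0, RLE size factors, library size only, fits without mitochondrial genes and Gm42418, without the filter, over all 7 groups, with a replicate block, and without each mouse. Replicate numbers were treated as names of different mice. CPM values use TMM factors over all 35 libraries. Pseudogenes and near-identical copies can take reads from Hspa1a, Hspa1b, Hspa8, Hsp90aa1 and Hsp90b1. Statistics were tested on simulated counts, and tables and figures were made in Python 3.11.15.

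The 35 members and all lists were chosen with earlier results of these data known. All members are accounted for, with values per mouse for the most changed of each role. Of each other pathway list, the 2 called genes with the largest change against controls are named, and others are marked as chosen later. Of the pathway genes, 7 were found under older symbols, and Nars1 was not used here.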

Additional observations from a re-analysis of the deposited data

Results flagged for a closer look

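Among the most changed genes of each role, 98 groups of 5 mice were checked for a mouse far from the rest on the log2 scale, and 6 were found, where chance gives about 1 in 20. Hsph1 was at 57.6 CPM in mouse 1 of 6 hours (nearest other 85.4), Hsp90aa1 at 376 in mouse 1 of 2 days (213), Trib3 at 19.9 in mouse 3 of 3 days (7.70), Sel1l at 44.1 in mouse 5 of 6 hours (32.3), Nfe2l1 at 144 in mouse 2 of 1 day (159), and Sdf2l1 at 0 in mouse 5 of 4 days (3.20).

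The response to cold differed between durations, by a test of the cold groups against each other, for the following members. Lower after 1 day than after 6 hours, in log2 fold change, were Hspa8 (-1.62), Hsph1 (-1.18), Ppp1r15a (-0.63), Dnajb9 (-0.61), Asns (-0.56) and Dnajb1 (-0.47), and higher were Herpud1 (0.52) and Pdia6 (0.49). Lower after 5 days than after 6 hours were Hspa1b (-1.17, 5 to 14 reads against 6 to 25), Hspa8 (-1.13), Hsph1 (-0.77), Hspa5 (-0.53), Hsp90aa1 (-0.41), Hsp90b1 (-0.38), Pdia3 (-0.35), Manf (-0.34) and Canx (-0.24). Of these, Hspa1b passed the filter mainly through the mice of 6 hours. Higher after 5 days were Trib3 (2.17), Herpud1 (0.81), Ddit3 (0.78), Asns (0.54), Dnajb1 (0.46) and Nfe2l1 (0.27). Several of these calls were lost in some of the 10 fits without 1 mouse. Of those between 6 hours and 1 day, Dnajb1 was lost in 7 (-0.54 to -0.37), Dnajb9 in 6 (-0.75 to -0.47) and Pdia6 in 5 (0.39 to 0.58). Of those between 6 hours and 5 days, Hsp90aa1 was lost in 8 (-0.55 to -0.31), Canx in 7 (-0.27 to -0.22), Dnajb1 in 5 (0.37 to 0.56), Nfe2l1 in 5 (0.24 to 0.31), Hspa1b in 4 (-1.44 to -0.98) and Pdia3 in 1, without mouse 4 of 6 hours (-0.28, adjusted p = 0.064). The fit over all 7 groups lost Manf between 6 hours and 5 days (-0.36, adjusted p = 0.153) and Ppp1r15a between 6 hours and 1 day (-0.64, adjusted p = 0.151). It also lost the calls of Hspa1b, Hsp90aa1 and Dnajb1 between cold groups.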

How the results depend on the processing

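The 35 genes gave 125 calls over the 8 comparisons. DESeq2 and the fit without mitochondrial genes and Gm42418 lost 0 of them, RLE size factors 1, the replicate block 8, the fit without the filter 11, the fit over all 7 groups 11 and library size only 29, and none turned its sign. Leaving out mice in turn (10 fits per comparison) lost 25 calls in at least 1 fit. Replicate numbers did not pair the mice, whose same-numbered deviations correlated at -0.239 to 0.144, and with the replicate block 0 members in place of 1 were lower after 2 days. With library size only, 5 members were lower after 1 day, 2 after 2 days and 5 after 5 days, 12 were called and 10 higher after 3 days, 10 were higher after 5 days, and 1 was higher at 1 day than at 6 hours. Without the filter 1 member was lower after 1 day, and over all groups 1 was lower after 3 days. Without 1 mouse, the members lower were 1 to 3 after 1 day, 1 to 2 after 2 days and 2 to 3 after 3 days, and between 6 hours and 1 day 5 to 9 were called, of which 1 to 3 were higher and 4 to 7 lower. Between 6 hours and 5 days, 4 to 6 were higher and 6 to 8 lower. Members with few reads per mouse (Sdf2l1, Hspa1a, Hspa1b and Chac1) are limited by depth. Causes of these shifts were not tested.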

Other observations

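Of 8 mitochondrial chaperones and proteases, all were tested, and 4 were higher after 6 hours and 1 day, 5 after 2 and 3 days and 6 after 4 and 5 days, with 0 or 1 lower and medians of 0.34 to 0.61 on the log2 scale. Hspe1, the cochaperonin of Hsp60, peaked early (118 ± 8.63 CPM in controls, 271 ± 9.99 after 6 hours, log2 fold change 1.18, SE 0.09, adjusted p = 1.1e-08), and the mitochondrial Hsp40 Dnaja3 went from 49.0 ± 8.0 to 106 ± 18.5 CPM after 5 days (1.11, SE 0.13, adjusted p = 4.4e-06). The shares of all genes called are those given in the report.

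Both genes that process Nfe2l1 were called higher. The protease Ddi2 was at 40.2 ± 5.10 CPM in controls and 62.0 ± 6.46 after 6 hours (0.61 on the log2 scale, SE 0.11, adjusted p = 2.7e-04), and the deglycosylase Ngly1 from 20.2 ± 1.74 to 30.3 ± 4.06 CPM after 4 days (0.58, SE 0.12, adjusted p = 9.9e-04). Among 12 other sensors and signal transducers, 1 to 4 were higher and 1 to 4 lower at each duration (8.33% to 33.3% in either direction), on both sides of the shares of all genes. The largest changes were in the other eIF2alpha kinases, Eif2ak2 (PKR) with -1.33 after 6 hours (SE 0.26, adjusted p = 4.5e-04) and Eif2ak4 (GCN2) with -0.89 after 3 days (SE 0.24, adjusted p = 0.00955).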
